A study of Mus musculus with 12 samples.

Results

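The 10 genes described here, of 53801 in the count table, encode interleukin-5 (Il5), the receptor chains for interleukin-5, interleukin-3 and GM-CSF (Il5ra, Il3ra, Csf2ra, Csf2rb and Csf2rb2), the kinase Jak2, the transcription factors Stat5a and Stat5b, and the feedback inhibitor Cish. They were chosen by name, for their place in this pathway. RNA of eosinophils isolated from bone marrow and blood was sequenced as 12 libraries, 3 for each tissue and genotype. The Atg5-knockout eosinophils came from Atg5 flox/flox eoCre Il5tg mice and the control eosinophils from eoCre Il5tg mice. Both genotypes therefore carried the Cre recombinase inserted at the eosinophil peroxidase gene Epx, which is active in the eosinophil lineage, and an Il5 transgene driven by Cd3d, a T cell gene, which raises the number of eosinophils. Mice without the transgene were not analysed here, and the ages of the mice were not given in the sources used here. The series was drawn from 3 mice of each genotype, but whether a replicate number marks 1 mouse in both tissues was not given.

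Interleukin-5 is the cytokine that drives the differentiation, release from the marrow and survival of eosinophils. Its receptor pairs the α chain Il5ra, which gives ligand specificity, with the common β chain Csf2rb, which also serves the α chains for interleukin-3 (Il3ra) and GM-CSF (Csf2ra). Mice have another β chain, Csf2rb2, which works with the interleukin-3 receptor. Binding activates the kinase JAK2 on the β chain, which phosphorylates STAT5A and STAT5B, and these switch on genes such as Cish, whose protein dampens the same receptors.

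Gene counts summed to at least 18885052 and at most 30270166 per library, and levels are given as CPM, counts scaled to a common library size with TMM factors. The eosinophil genes Siglecf and Ccr3 were present in all libraries at 345 CPM or more. The 10 eosinophil markers found in the table took 8.08% to 10.3% of all counts in bone marrow and 1.82% to 4.06% in blood, where Epx and Prg2 were lower in each library than in any bone marrow library. Cells of both tissues were purified by antibody depletion of other leukocytes, with CD8α, CD90.2 and Ly6G among the targets, and blood passed through a density step and water lysis of red cells before that, so tissue and isolation cannot be told apart in the comparisons of blood with bone marrow. Genes of dividing cells took 0.173% to 0.252% of counts in bone marrow and 0.0135% to 0.0202% in blood. Neutrophil markers took 2.22% to 3.17% in bone marrow and 1.18% to 2.10% in blood. Markers of monocytes and macrophages took 0.519% to 0.609% in bone marrow and 0.422% to 0.675% in blood. The part of these cells in the levels given below was not tested. The first control blood library stood apart with 14.6% of its counts on red cell genes, against 0.422% to 1.42% in the other 5 blood libraries. In bulk RNA, fewer cells of a type and less RNA per cell cannot be told apart. The mRNA of Atg5 itself was 42.5 ± 2.62 CPM in control and 32.0 ± 1.74 CPM in Atg5-knockout bone marrow eosinophils (SD, n = 3), with no overlap between libraries (log2 fold change -0.44, SE 0.11, edgeR adjusted p = 0.157). Across the alternative tools, scalings and filters this log2 fold change ran from -0.45 to -0.41, and whether Atg5 was called depended on the setting. In blood the values overlapped, at 48.1 ± 9.62 and 47.2 ± 9.12 CPM (SD, n = 3). Reads of exons outside the floxed part are counted as well, so the Atg5 count is a weak check of the genotype.

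No member passed the test between Atg5-knockout and control eosinophils in either tissue. In bone marrow 0 of the 10 genes were called by edgeR at an adjusted p under 0.05 (0.348% of all tested genes were), 2 had an unadjusted p under 0.05 (9.67% of all tested genes), and DESeq2 and limma-voom called 0. In blood the numbers were 0 called (0.0371% of all tested genes), 1 at an unadjusted p under 0.05 (2.58%), and 0 by DESeq2 and limma-voom. Between tissues several members did differ. Csf2ra and Jak2 were higher in blood than in bone marrow eosinophils of both genotypes, Cish was called higher in blood in Atg5-knockout eosinophils, and Il5ra was called lower in blood in control eosinophils. That makes 2 genes called higher and 1 called lower in the control (16.2% and 18% of all tested genes), and 3 called higher and 0 called lower in the knockout (23.5% and 24.1% of all tested genes). For the 0 called lower, 1 member, Il3ra, was lower at an unadjusted p under 0.05 (27.7% of all tested genes), and DESeq2 and limma-voom called 0. Set against those shares, the counts higher were near what the whole table showed. Libraries of the tissues did not overlap for 2 members higher and 1 lower in the control (23.5% and 26.6% of all tested genes), and for 4 higher and 2 lower in the knockout (27.7% and 32.3%). No member changed past a log2 fold change of 2.

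**Figure D1:**
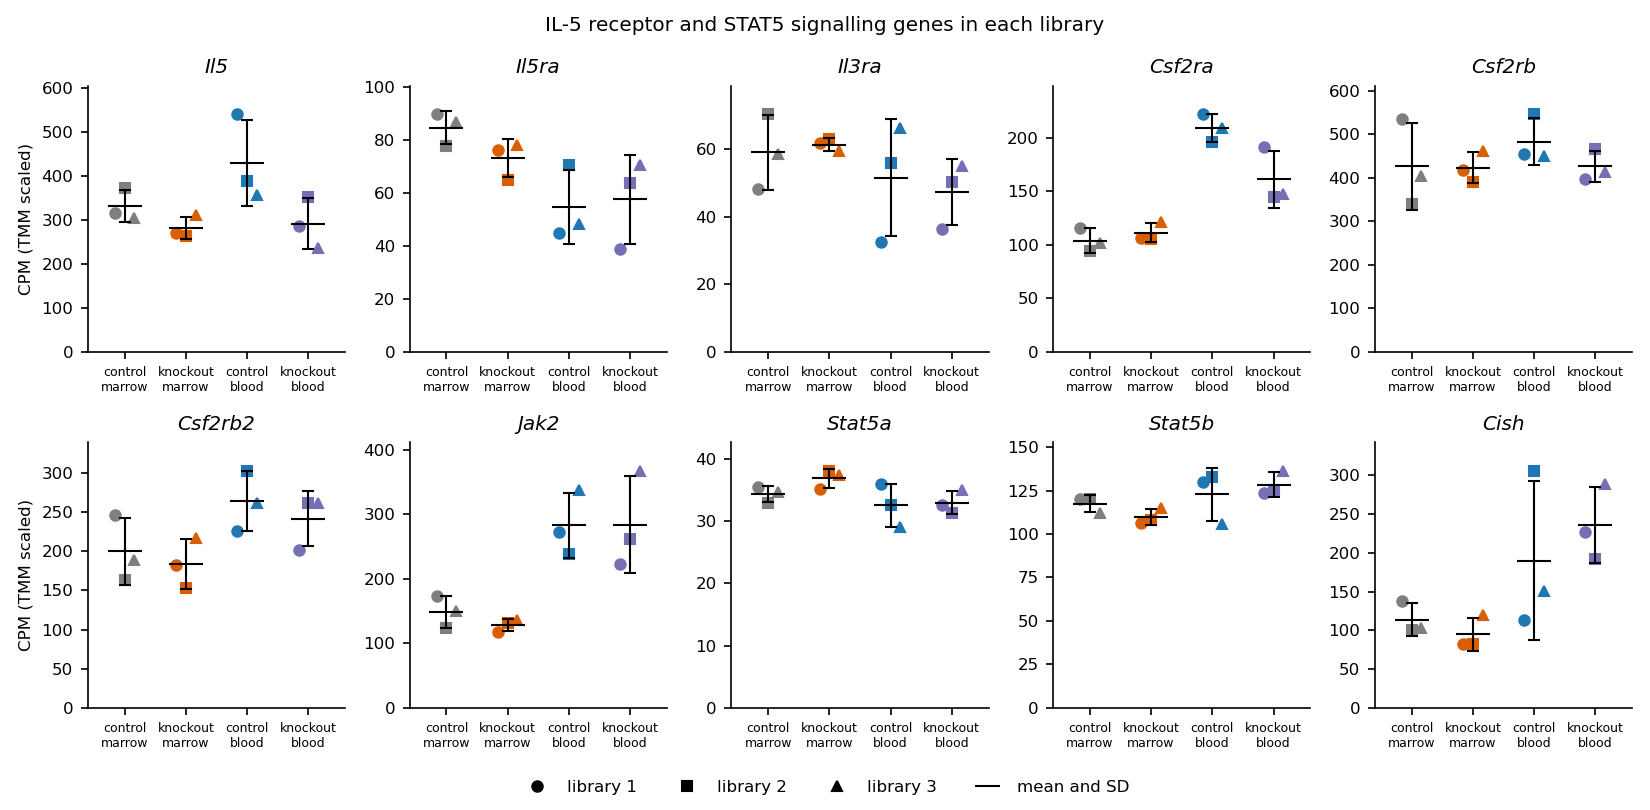
Level of each of the 10 genes in each library, in TMM-scaled CPM on an axis from 0, for control and Atg5-knockout eosinophils of bone marrow and blood. Points are libraries, with the shape giving the replicate number, and lines are the mean and SD of 3 libraries. Jak2 and Csf2ra stand higher in all blood libraries than in any bone marrow library of their genotype, while Stat5a stays between 29.0 and 38.1 CPM throughout.

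Per kilobase of the exon length in the table, Il5 had the highest level of the 10 genes in all 4 groups, at 215 ± 23.6 CPM per kb in control bone marrow, 183 ± 16.4 in knockout bone marrow, 279 ± 63.7 in control blood and 189 ± 37.6 in knockout blood (SD, n = 3). Its range did not overlap that of the next gene in any group. Csf2ra and Csf2rb followed, at 56.1 ± 6.08 and 59.7 ± 14.1 CPM per kb in control bone marrow, where their ranges overlapped, and at 113 ± 6.99 and 67.7 ± 7.56 CPM per kb in control blood, where they did not (SD, n = 3). Il5ra, Il3ra and Stat5b lay close together, with means of 19.8 to 23.7 CPM per kb in the marrow and of 15.3 to 23.2 CPM per kb in blood. In bone marrow of either genotype the ranges of Il3ra and Stat5b overlapped. Stat5a was the lowest member in every group, with means of 4.56 to 5.17 CPM per kb. The exon length used is that of all annotated transcripts together, which lowers the level per kb of genes with long rare transcripts.

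Il5 (chr11:53720794-53725106 on GRCm38, forward strand) encodes the ligand, and was counted from the endogenous gene and the transgene together. It measured 316, 372 and 305 CPM in control and 270.2, 264 and 310.4 CPM in knockout bone marrow eosinophils. It measured 540.3, 389 and 357 CPM in control blood and 285, 351 and 236 CPM in knockout blood. All 3 knockout blood libraries were below all 3 control blood libraries, while in bone marrow the genotypes overlapped. In blood Il5 was 1.46-fold lower in the knockout (log2 fold change -0.54, SE 0.23, edgeR adjusted p = 1), and in bone marrow 1.20-fold lower (log2 fold change -0.26, SE 0.12, edgeR adjusted p = 0.51), neither of which passed the adjustment. The interaction of genotype and tissue, which compares the knockout effect in blood with that in bone marrow, was -0.33 on the log2 scale (SE 0.26, edgeR adjusted p = 0.942). Between tissues Il5 overlapped in both genotypes, with log2 fold changes of 0.36 in the control and 0.06 in the knockout (edgeR adjusted p = 0.185 and 0.773).

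The Il5 counts were set beside the markers of T cells, since the transgene is driven by Cd3d and the depletion of CD8α and CD90.2 would remove T cells. In bone marrow Il5 had 7929 to 10370 counts per library, whereas the 14 T cell markers summed to 325 to 391 counts. Cd3e, 1 of these markers, had 0 counts in all 6 libraries. Cd3d, another of these markers, whose promoter drives the transgene, had 80 to 121 counts in the same libraries. In blood Il5 had 4622 to 8857 counts against 820 to 11330 for the T cell markers, so the ratio of Il5 to these markers ran from 0.587 to 8.87 in blood and from 21.7 to 31.0 in bone marrow. The first knockout and the first control blood library held the most T cell marker counts, 11330 and 5226, beside Il5 counts of 6652 and 8857. Scaled for depth, the first control blood library had the highest Il5 level of the 12 libraries, 540.3 CPM, and the first knockout blood library measured 285 CPM. The part of T cells in the Il5 level was not tested. Among markers of type 2 innate lymphoid cells, which also make interleukin-5, Gata3 had 0 to 3 counts in each bone marrow library and 29 to 66 in each blood library. Areg had 0 counts in 11 of the 12 libraries and 4 in the remaining library, and the 7 markers together took 0.0151% to 0.0360% of counts, most of them on Il1rl1. Il3, which encodes interleukin-3, had 0 counts in all 12 libraries, which allows up to 3 counts in each, and Csf2, which encodes GM-CSF, had 20 counts in all. Exons of the antisense gene Gm12214, which had 0 counts, overlap 27.1% of the Il5 exons. An unstranded count cannot assign reads within that overlap to 1 gene, so the Il5 counts may leave such reads out.

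**Figure D2:**
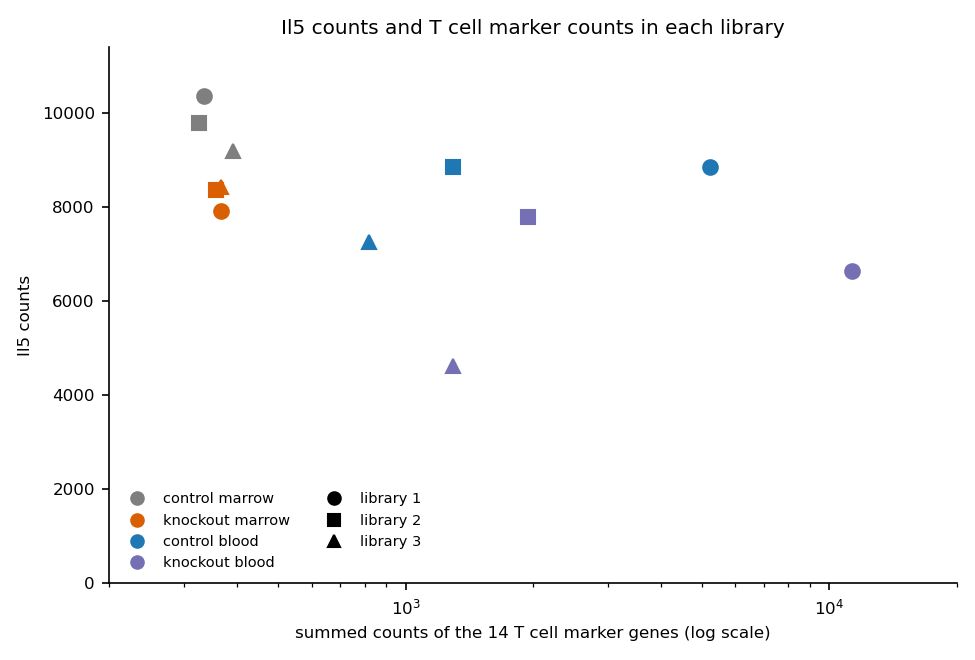
Il5 counts (vertical axis, from 0) against the summed counts of the 14 T cell marker genes (horizontal axis, log scale) in each of the 12 libraries, coloured by group and shaped by replicate number. The bone marrow libraries lie at the left with 325 to 391 T cell marker counts and 7929 to 10370 Il5 counts, and the blood libraries spread from 820 to 11330 T cell marker counts with 4622 to 8857 Il5 counts, which are not scaled for library depth.

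Il5ra (chr6:106710357-106749037, reverse strand), the α chain specific for interleukin-5, was called lower in blood in the control. It measured 89.7, 77.8 and 86.7 CPM in control and 76.3, 64.8 and 78.1 CPM in knockout bone marrow, and 44.7, 70.6 and 48.3 CPM in control and 38.6, 63.6 and 70.7 CPM in knockout blood. Every control blood library was below every control bone marrow library, and in the knockout the tissues overlapped. The level was 1.56-fold lower in control blood (log2 fold change -0.65, SE 0.20, edgeR adjusted p = 0.0358), and the call was lost without the third control blood library or without any of the 3 control bone marrow libraries, with edgeR adjusted p between 0.075 and 0.118. In the knockout the log2 fold change was -0.33 (SE 0.21, edgeR adjusted p = 0.225), and the interaction of genotype and tissue was 0.29 (SE 0.31, edgeR adjusted p = 0.957), so a difference between genotypes was not shown. Within bone marrow Il5ra was 1.18-fold lower in the knockout (log2 fold change -0.24, SE 0.11, edgeR adjusted p = 0.513), with overlapping libraries.

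Csf2ra (chr19:61224402-61228418, reverse strand), the α chain for GM-CSF, moved the other way. It measured 116, 93.6 and 102 CPM in control and 107, 105 and 121 CPM in knockout bone marrow, against 222, 196 and 209 CPM in control and 191, 144 and 147 CPM in knockout blood. All blood libraries were above all bone marrow libraries. The level was 1.996-fold higher in control blood (log2 fold change 0.997, SE 0.15, edgeR adjusted p = 0.0016) and 1.47-fold higher in knockout blood (log2 fold change 0.55, SE 0.14, edgeR adjusted p = 0.0124). The knockout call was lost without the first or the second knockout bone marrow library (edgeR adjusted p = 0.062 and 0.0666) and when libraries were scaled by their size alone (0.132). Within blood all 3 knockout libraries lay below all 3 control libraries, at a log2 fold change of -0.36 (SE 0.18, edgeR adjusted p = 1). Il5 and Csf2ra were the 2 members whose genotypes did not overlap in blood, both lower in the knockout, which was so for 4.05% of all tested genes, and 0 members were without overlap in bone marrow, against 14.4% of all tested genes. The interaction for Csf2ra was -0.47 (SE 0.20, edgeR adjusted p = 0.942), the only one of the 10 with an unadjusted p under 0.05.

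The ratio of Csf2ra to Il5ra, both per kb, therefore shifted between tissues. It was 2.37 ± 0.117 in control and 2.94 ± 0.222 in knockout bone marrow, and 7.77 ± 2.18 in control and 5.99 ± 3.11 in knockout blood (SD, n = 3). The lowest blood library had a ratio of 4.02 and the highest bone marrow library one of 3.13. Il3ra (chr14:14346275-14356011, forward strand), the α chain for interleukin-3, ranged from 48.1 to 70.3 CPM in bone marrow and from 32.3 to 66.3 CPM in blood. In the knockout its 3 blood libraries, at 36.2, 50.3 and 55.1 CPM, lay below the 3 bone marrow libraries, at 61.7, 63.0 and 59.3 CPM, but the difference did not pass the test (log2 fold change -0.36, SE 0.16, edgeR adjusted p = 0.0915), and it did without the third knockout blood library (edgeR adjusted p = 0.0335). In the control the tissues overlapped.

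The β chains Csf2rb (chr15:78325798-78353847, forward strand) and Csf2rb2 (chr15:78282507-78305721, reverse strand) lie next to each other and are close copies. Csf2rb, the chain shared by the receptors for all 3 cytokines, ranged from 339 to 536 CPM in bone marrow and from 398 to 546 CPM in blood, and the groups overlapped in each comparison. Csf2rb2 measured 246, 164 and 189 CPM in control and 182, 153 and 217 CPM in knockout bone marrow, and 226, 303 and 262 CPM in control and 201, 262 and 262 CPM in knockout blood. Its log2 fold change in blood against bone marrow was 0.39 in the control (SE 0.20, edgeR adjusted p = 0.158) and 0.41 in the knockout (SE 0.16, edgeR adjusted p = 0.0691). DESeq2 called the latter (adjusted p = 0.0431), and so did edgeR without the first knockout blood library (adjusted p = 0.0160). The ratio of Csf2rb to Csf2rb2 per kb was 1.37 to 1.69 in bone marrow and 1.05 to 1.33 in blood. Of the stretches of 100 bases in the transcripts, 6.96% of those of Csf2rb and 7.20% of those of Csf2rb2 occur in the other gene as well, and reads from them were not counted if they mapped to both, so the split between the copies carries that uncertainty.

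Jak2 (chr19:29251828-29313080, forward strand), the kinase bound to the β chain, was called higher in blood in both genotypes. It measured 173, 124 and 150.05 CPM in control and 118, 132 and 136 CPM in knockout bone marrow, and 273, 239 and 338 CPM in control and 223, 261 and 368 CPM in knockout blood. No blood library was as low as any bone marrow library. The rise was 1.88-fold in the control (log2 fold change 0.91, SE 0.19, edgeR adjusted p = 0.0071) and 2.24-fold in the knockout (log2 fold change 1.16, SE 0.18, edgeR adjusted p = 0.001), and the call held in every alternative run, including without each library. Neither difference between genotypes passed the test, with log2 fold changes of -0.24 in bone marrow (SE 0.12, edgeR adjusted p = 0.561) and 0.03 in blood (SE 0.24, edgeR adjusted p = 1).

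Stat5a (chr11:100859351-100885169, forward strand) and Stat5b (chr11:100780731-100850724, reverse strand), the transcription factors that JAK2 activates, varied least of the 10 genes. Over the 12 libraries the highest value was 1.31 times the lowest for Stat5a and 1.29 times for Stat5b, against 1.61 to 3.73 times for the other 8. Stat5a measured 32.9 to 35.4 CPM in control and 35.1 to 38.1 CPM in knockout bone marrow, and 29.0 to 36.0 and 31.2 to 34.9 CPM in control and knockout blood. Stat5b measured 112 to 120.4 and 107 to 115 CPM in bone marrow, and 106 to 133 and 124 to 136 CPM in blood, in the same order. Neither gene was called in any reported comparison, though Stat5a was called lower in knockout blood with library size alone. In the knockout the tissues did not overlap for either gene. In blood Stat5a was lower (log2 fold change -0.15, SE 0.12, edgeR adjusted p = 0.342) and Stat5b higher (0.24, SE 0.11, edgeR adjusted p = 0.100). The 95% intervals of the knockout effect were -0.15 to 0.29 for Stat5a and -0.34 to 0.08 for Stat5b on the log2 scale in bone marrow, and -0.37 to 0.45 and -0.30 to 0.47 in blood. Per kb, Stat5b was 3.66 to 5.27 times Stat5a in every library. The copies share 5.70% of the stretches of 100 bases of Stat5a and 4.87% of those of Stat5b.

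Cish (chr9:107296026-107302784, forward strand), a SOCS family inhibitor and a classical STAT5 target, had the widest range of the 10 genes, 3.73 times from the lowest to the highest library. It measured 138, 100.1 and 103 CPM in control and 82.9, 82.1 and 119.7 CPM in knockout bone marrow, and 113, 306 and 151 CPM in control and 227, 192 and 289 CPM in knockout blood. All knockout blood libraries were above all knockout bone marrow libraries, whereas the first control blood library, the one with the red cell counts, lay below the highest control bone marrow library. Cish was 2.51-fold higher in knockout blood (log2 fold change 1.33, SE 0.20, edgeR adjusted p = 0.000768), a call that every alternative kept. In the control the log2 fold change was 0.73 (SE 0.34, edgeR adjusted p = 0.128), and without the first control blood library it was 0.999 (edgeR adjusted p = 0.0129), when Csf2rb2 was called as well and 4 members were called higher in place of 2. Over all tested genes 2808 of 14099 were called higher in that run, against 2212 of 13669 with all libraries. Without the second control blood library, the one at 306 CPM, 2 members were called higher, Csf2ra and Jak2, and Cish was not. In that run 2025 of 14167 tested genes were called higher. Without the filter on low counts edgeR called Cish in the control too (adjusted p = 0.0293). The interaction was 0.57 (SE 0.43, 95% interval -0.36 to 1.51, edgeR adjusted p = 0.942), so the data do not separate the genotypes. Within tissues Cish was -0.29 (SE 0.16, edgeR adjusted p = 0.611) in knockout against control bone marrow and 0.33 (SE 0.35, edgeR adjusted p = 1) in blood, on the log2 scale. Exons of 2 antisense genes, Gm17040 with 115 counts in all libraries and Gm17041 with 0, overlap 4.07% and 7.46% of the Cish exons.

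STAT5 binds DNA as a dimer at the sequence TTCNNNGAA, which reads the same on both strands, and the windows around the start sites of the members were searched for it. The window held 300 bases, 250 before the RefSeq start and 50 after it, and 8.30% of the 32851 such windows in the RefSeq table held the motif at least once, 0.457% of them 2 times or more. Windows were found for 9 of the 10 genes, all but Csf2rb, and 2 of them held the motif. The window of Cish held it 2 times, at positions 1 and 12 counted from the start site, and the window of Csf2rb2 held it 15 bases before the start. Among the other pathway genes described below, 4 of the 58 with a window held it, Socs3, Il7r, Prlr and Bcl6. The sequences of the 2 members and of Socs3, a related inhibitor, are shown with the motif in capitals, from RefSeq on GRCm38.p6, at chr9:107296409-107296678 on the forward strand for Cish, chr15:78305722-78305971 on the reverse strand for Csf2rb2 and chr11:117969367-117969616 on the reverse strand for Socs3. A match describes the letters only, since binding was not measured in these samples.
Cish: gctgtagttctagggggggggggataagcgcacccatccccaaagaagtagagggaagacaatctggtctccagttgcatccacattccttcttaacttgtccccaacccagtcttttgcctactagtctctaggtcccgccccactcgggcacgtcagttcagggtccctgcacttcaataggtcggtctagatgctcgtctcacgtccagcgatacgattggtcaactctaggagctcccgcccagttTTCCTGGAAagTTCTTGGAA
Csf2rb2: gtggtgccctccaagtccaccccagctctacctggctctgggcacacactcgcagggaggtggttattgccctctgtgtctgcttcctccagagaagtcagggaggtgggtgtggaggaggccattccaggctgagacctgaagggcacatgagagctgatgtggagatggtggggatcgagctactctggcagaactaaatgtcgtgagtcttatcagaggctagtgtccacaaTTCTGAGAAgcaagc
Socs3: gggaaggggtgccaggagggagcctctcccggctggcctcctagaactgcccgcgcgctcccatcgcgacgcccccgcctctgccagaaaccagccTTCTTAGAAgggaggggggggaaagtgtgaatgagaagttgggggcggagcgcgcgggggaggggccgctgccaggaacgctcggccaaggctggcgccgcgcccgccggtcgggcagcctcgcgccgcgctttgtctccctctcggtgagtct

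**Figure D3:**
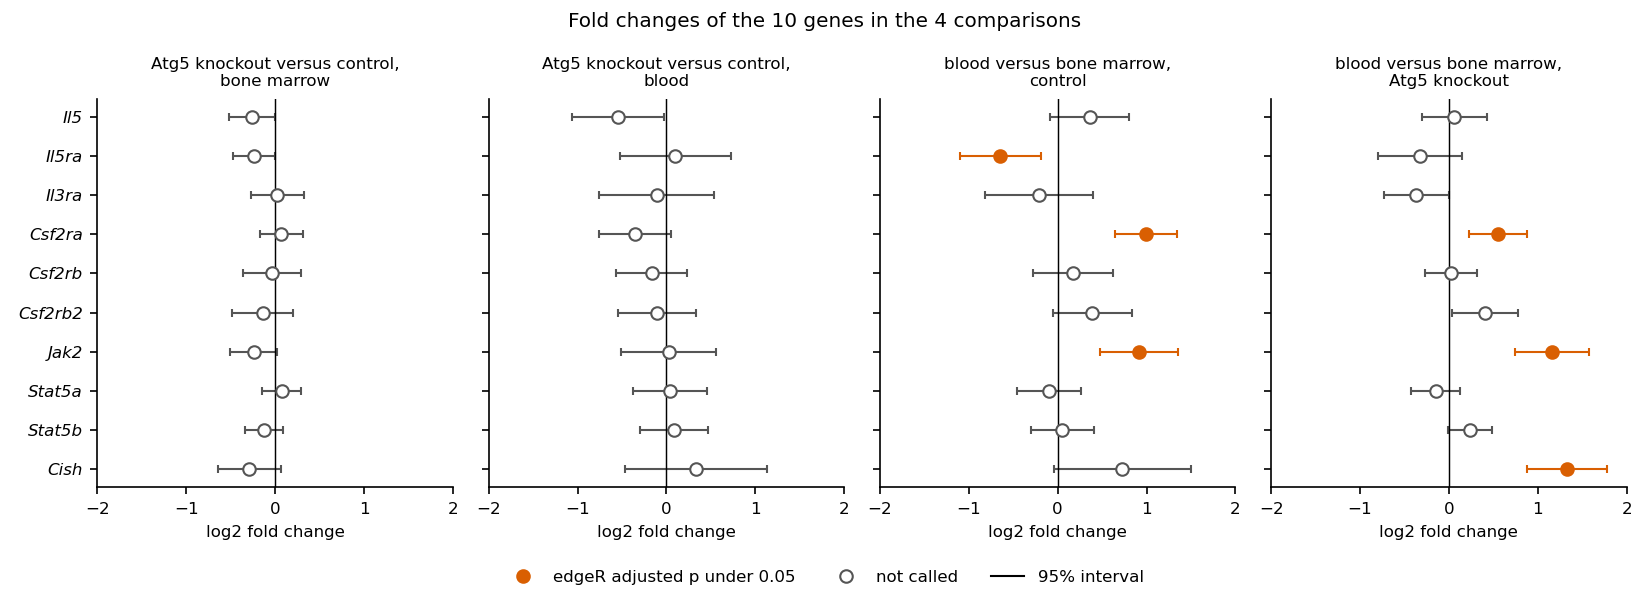
Log2 fold change of the 10 genes (rows) in the 4 comparisons between groups (panels), each from edgeR with its 95% interval as the bar. Filled points passed an adjusted p of 0.05. No point is filled in the 2 comparisons between genotypes, Il5ra, Csf2ra and Jak2 are filled in control blood against bone marrow, and Csf2ra, Jak2 and Cish in the knockout.

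The genes around these 10 in the pathway were followed in 5 lists that could be tested, of kinases and adaptors, other STAT factors, feedback inhibitors, STAT5 targets with survival genes, and other receptors that use STAT5. Together with the 2 other ligands Il3 and Csf2 they hold 78 genes. Of these, 72 were tested in each comparison between tissues, 26 were called higher and 4 lower in control blood than in control bone marrow, and 32 higher and 10 lower in the knockout. Of all tested genes, 16.2% were called higher and 18% lower in the control, and 23.5% and 24.1% in the knockout, and the counts of each list below are to be read beside these shares. The median log2 fold change of the tested pathway genes was 0.33 in the control and 0.44 in the knockout, beside -0.0029 and -0.010 for all tested genes. Of the calls, 24 higher and 4 lower were shared by both genotypes. Shared calls were not counted over all tested genes, so these numbers cannot be set against the whole table. The count in the control fell to 14 and 16 higher without the third or the second control bone marrow library. Over all tested genes 1163 of 14162 and 1329 of 14227 were higher there, against 2212 of 13669 with all libraries. The count lower ran from 2, without any of the 3 control bone marrow libraries, to 11 without the first control blood library. Over all tested genes these runs called 1464 to 1665 and 3118 lower, against 2466. In the knockout the count lower was 6 without the second bone marrow library, where 2356 of 14338 tested genes were called lower, against 3336 of 13853.

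Among the STAT5 targets and survival genes, 6 of 16 tested were called higher and 1 lower in control blood, and 7 higher and 3 lower in knockout blood. Osm, which encodes the cytokine oncostatin M, measured 52.5, 41.3 and 40.3 CPM in control bone marrow and 777, 1738 and 257 CPM in control blood, and rose 20.5-fold in the control and 36.6-fold in the knockout (log2 fold change 4.36, SE 0.61, edgeR adjusted p = 0.00102, and 5.2, SE 0.26, adjusted p = 1.67e-06). Without the second control blood library its control log2 fold change was 3.53. Pim3, a serine kinase that favours survival, rose 10.5-fold and 14.9-fold, and Cdkn1a, the cell cycle inhibitor p21, rose 6.32-fold and 10.02-fold, in control and knockout. In these 3 genes no blood library overlapped any bone marrow library.

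Of the 19 feedback inhibitors, 5 were called higher and 2 lower in control blood, and 9 higher and 3 lower in knockout blood. Socs2, a SOCS family relative of Cish, rose 2.67-fold in the control (log2 fold change 1.41, SE 0.19, edgeR adjusted p = 0.000714) and 4.67-fold in the knockout (2.22, SE 0.22, adjusted p = 8.43e-05). Socs3 rose 2.73-fold and 4.31-fold, with the largest blood values in the libraries numbered 1 (66.9 CPM in the control and 88.7 CPM in the knockout, against 16.1 to 42.0 CPM in the others). Without the first blood library of a genotype its log2 fold change was 0.94 in the control, where the call was lost, and 1.496 in the knockout. The control call was also lost without the second control blood library or any of the 3 control bone marrow libraries, with an edgeR adjusted p of up to 0.12. Ptpn1, a phosphatase that acts on JAK2, rose 3.36-fold and 3.08-fold. Spred2, an inhibitor of the RAS pathway, fell 3.19-fold in the knockout (log2 fold change -1.67, SE 0.23, edgeR adjusted p = 0.000425) and measured -0.37 in the control (SE 0.30, adjusted p = 0.369).

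Of the 23 kinases and adaptors, 11 were called higher and 0 lower in control blood, and 12 higher and 1 lower in knockout blood. Jak1, the kinase that partners the α chains of other cytokine receptors, rose 2.27-fold and 2.2-fold, the SRC family kinase Fyn rose 3.26-fold and 2.77-fold, and Syk rose 1.90-fold and 1.64-fold. The control call of Syk was lost without the third control blood library or without the second or the third control bone marrow library, with an edgeR adjusted p of up to 0.102. Fyn, which T cells also use, was highest in the blood libraries numbered 1, at 80.8 CPM in the control and 72.4 CPM in the knockout against 30.9 to 38.8 CPM in the others, and its control log2 fold change was 1.097 without the first control blood library. Of the 5 other STAT factors, Stat6, the factor of interleukin-4 signalling, rose 2.30-fold in the control and 2.32-fold in the knockout, and Stat4 rose 2.30-fold in the knockout (log2 fold change 1.20, SE 0.20, edgeR adjusted p = 0.00122) and measured 0.83 in the control (SE 0.30, adjusted p = 0.0585).

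Of the 9 tested genes for other receptors that use STAT5, 3 were called higher and 1 lower in control blood, and 2 higher and 3 lower in knockout blood. Il2rb, the β chain for interleukin-2 and interleukin-15, measured 1.16, 0.835 and 1.56 CPM in control bone marrow and 184, 61.7 and 78.6 CPM in control blood, and 1.26, 1.42 and 2.28 CPM in knockout bone marrow and 100.2, 66.9 and 76.9 CPM in knockout blood. It rose 89.7-fold in the control (log2 fold change 6.49, SE 0.50, edgeR adjusted p = 4.08e-05) and 49.8-fold in the knockout (5.64, SE 0.27, adjusted p = 1.3e-06). Its partner chain Il2rg rose 2.54-fold and 3.09-fold. The T cell markers took 0.0277% and 0.05002% of counts in the blood libraries numbered 1 and 0.0034% to 0.0081% in the other 4, where Il2rb measured 61.7 to 78.6 CPM. The part of T cells and other lymphocytes in the Il2rb level was not tested. Without the first control blood library its control log2 fold change was 5.87. The erythropoietin receptor Epor fell 7.31-fold in the knockout, from 1.25 to 3.09 CPM in bone marrow to 0.0511 to 0.6 CPM in blood. Leaving out 1 library gave log2 fold changes of -4.63 to -2.36 for Epor, and without the second knockout bone marrow library the call was lost (edgeR adjusted p = 0.0887). Kit, the receptor for stem cell factor, fell 3.94-fold in the knockout. Markers of basophils and mast cells, which also express Kit, took 0.0293% to 0.0352% of counts in knockout bone marrow and 0.011% to 0.0146% in knockout blood, and their part in the Kit level was not tested.

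**Figure D4:**
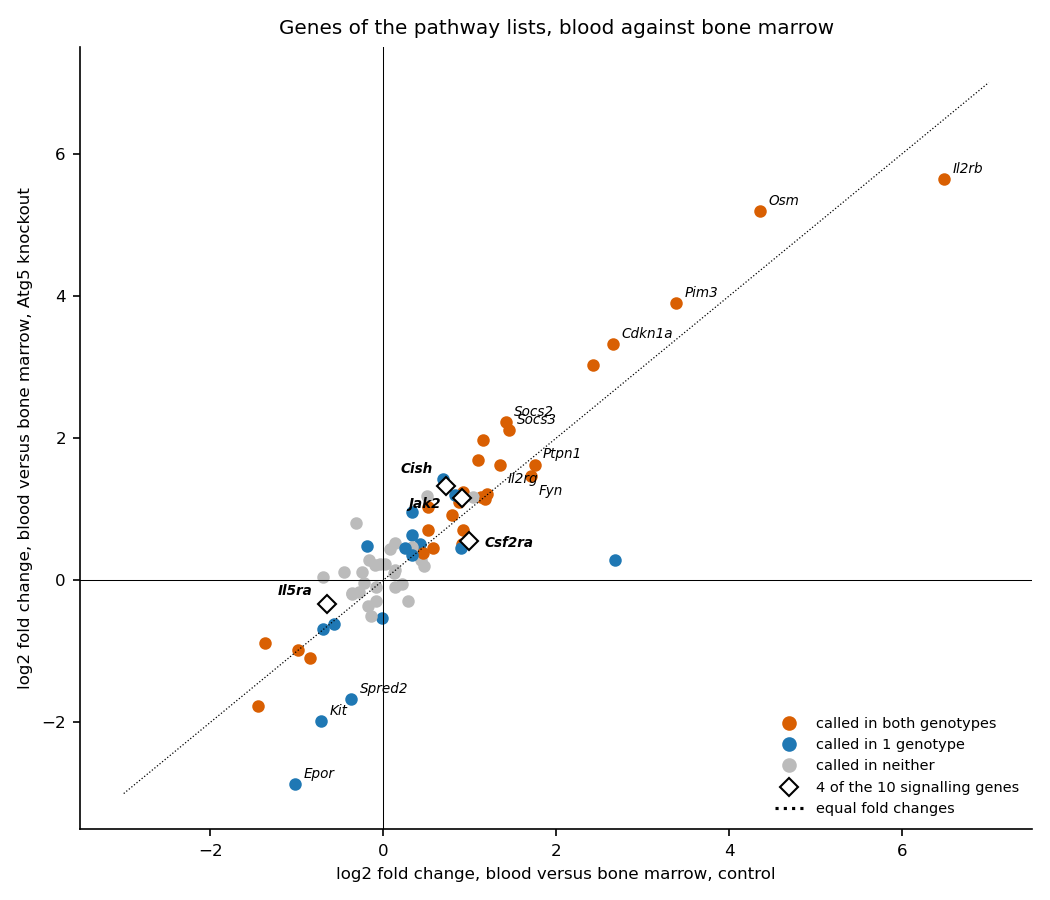
Log2 fold change in blood against bone marrow of the 72 tested pathway genes in control (horizontal axis) and Atg5-knockout eosinophils (vertical axis). Colours give the number of genotypes in which edgeR called the gene, diamonds are Cish, Jak2, Csf2ra and Il5ra, and the dotted line marks equal fold changes. Il2rb, Osm, Pim3 and Cdkn1a lie far out at the upper right, and Epor, Kit and Spred2, called in the knockout alone, at the lower left.

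Between genotypes 0 of the 72 tested pathway genes were called by edgeR in bone marrow and 0 in blood, with 11 and 4 at an unadjusted p under 0.05 (9.67% and 2.58% of all tested genes). DESeq2 called 2 lower in bone marrow, where it called 135 of all 13781 tested genes lower, and 0 in blood. With limma-voom 0 were called in both. The median log2 fold change was -0.08 in bone marrow and 0.09 in blood, beside 0.0029 and 0.0062 for all tested genes. The interaction of genotype and tissue called 0 of the 10 members and 0 of 73 tested pathway genes, with 1 and 10 at an unadjusted p under 0.05 (5.03% of all tested genes).

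The genes whose log2 CPM followed that of Il5ra most closely over the 12 libraries were Rnf144b, Aqp9 and Ubash3b, with Pearson correlations of 0.964, 0.963 and 0.963. Those closest to Cish were Mfng, Madd and Nfil3, at 0.940, 0.939 and 0.936. These values describe libraries that share tissue and isolation and so are not independent, and they carry no test. Nfil3 measured 92.1 and 80.1 CPM on average in control and knockout bone marrow and 207 and 311 CPM in control and knockout blood.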

How the data were processed

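The libraries were made from mRNA with a stranded kit and read from 1 end over 100 bases. The authors aligned the reads with HISAT2 2.2.1 and deposited raw counts per gene from featureCounts, without normalization. The submitters' processing notes name these tools. The header of the count table names featureCounts 2.0.1 with Ensembl release 92 (GRCm38). It sets the option for paired reads but no option for strand or for reads that map to several places, while the Methods name an annotation on GRCm39. Coordinates are those of the table. No row lacked a gene and no column was left out. Symbols were matched through GENCODE for 49674 of the 53801 genes.

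Counts were tested with edgeR 4.0.16 (quasi-likelihood test, TMM, low-count filter with minimum count 10 and minimum total 15, prior count 0.125) in R 4.3.3, on the 6 libraries of each comparison and on all 12 for the interaction of genotype and tissue, with Benjamini-Hochberg adjustment over all tested genes and a threshold of 0.05. Levels are TMM-scaled CPM, given per kb of the table's exon length wherever genes are compared. The p-values measure the spread between 3 libraries, each from a mouse by the series' design.

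The genes and lists were chosen with earlier results of these data known. The rule named all 10 genes, Atg5, from each list and comparison up to 3 called genes of largest fold change, and for Il5ra and Cish the 3 genes of highest correlation. The values of 2 genes it named are not reported here. Gm12214, Gm17040 and Gm17041 were named as overlapping genes, Il3 and Csf2 as ligands, and Il7r, Prlr and Bcl6 for the motif, after their values were seen. Marker genes served as checks. Same-numbered blood libraries of the genotypes departed from their group means in parallel (correlations of 0.50, 0.21 and 0.30). The blood results given above come from the fit that does not pair them. With the numbers as pairs in blood, no call among the 10 genes changed, and 2 members had an edgeR unadjusted p under 0.05 in place of 1. Over all tested genes 1021 of 13460 had one, in place of 347. Such a parallel was not seen for the marrow libraries of the genotypes (-0.15, -0.11 and 0.0041), nor for blood with marrow of a genotype (-0.11 to 0.13). These values cannot settle whether a number marks 1 mouse in both tissues. The reported tissue tests treat blood and marrow libraries as independent, although both tissues of a genotype were drawn from 3 mice. With the numbers as pairs there, 2 members were called higher and 1 lower in the control, and 3 and 0 in the knockout, the same counts as without pairs.

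Alternatives were DESeq2 1.42.0, limma-voom (limma 3.58.1), edgeR on 12 libraries, other scalings and filters, the replicate block and leaving out each library. Leaving out both blood libraries numbered 1 was added after the data were examined. On simulated data the test recovered 94% of genes changed 2-fold between genotypes in bone marrow, and 10% of those changed 2-fold and 81% of those changed 4-fold in blood. It recovered 10% and 80% in blood against bone marrow of the control, and 9% and 85% in the knockout. Both tissue comparisons were simulated with the spread set for the blood comparison, whose coefficient of variation between libraries was 0.365 in the data. The data gave 0.286 for the tissue comparison of the control and 0.236 for that of the knockout, so these 2 recoveries are likely too low.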

Additional observations from a re-analysis of the deposited data

How the results depend on the processing

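Jak2 in blood against bone marrow was called in both genotypes, Csf2ra in the control and Cish in the knockout under every alternative run, and no alternative called a member between genotypes or in the interaction. Each of the 10 genes had at least 530 counts in every library. Scaling by library size alone moved the median of all genes by -0.31 in the control and -0.24 in the knockout comparison of tissues, from about 0, and under it 3 members were called lower in knockout blood (Il5ra, Il3ra and Stat5a), against 1 without a filter. The cause of the changes below was not tested. With library size alone the tissue log2 fold change became -0.255 for Stat5b, -0.14 for Csf2rb and -0.14 for Atg5 in the control, and -0.21 for Csf2rb and -0.16 for Il5 in the knockout, and that of Atg5 between genotypes in blood 0.0633. Without a filter it was -0.0394 for Csf2rb in the knockout, and for Jak2 between genotypes in blood -0.0131. The interaction of Csf2rb2, -0.0083 as reported, became 0.0127 with DESeq2 and with its factors, and 0.0891 with library size alone, where that of Stat5a became 0.0248. Without both blood libraries numbered 1 these were 0.033 and 0.0307, and Atg5 in blood was 0.10.

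Leaving out 1 library in turn gave log2 fold changes of both signs. Between genotypes in bone marrow the ranges were -0.0055 to 0.15 for Csf2ra, -0.17 to 0.15 for Csf2rb, -0.28 to 0.028 for Csf2rb2 and -0.11 to 0.18 for Il3ra. In blood they were -0.12 to 0.16 for Atg5, -0.21 to 0.0044 for Csf2rb2, -0.35 to 0.11 for Il3ra, -0.0817 to 0.33 for Il5ra, -0.21 to 0.18 for Jak2, -0.0344 to 0.12 for Stat5a and -0.0115 to 0.15 for Stat5b. Between tissues they were -0.42 to 0.0427 for Il3ra and -0.0045 to 0.16 for Stat5b in the control, and -0.0489 to 0.0796 for Csf2rb and -0.10 to 0.19 for Il5 in the knockout. For the interaction they were -0.20 to 0.13 for Csf2rb2, -0.44 to 0.0296 for Il3ra and -0.0125 to 0.40 for Jak2.

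Counts of calls moved as follows. In bone marrow 20 genes were called higher and 28 lower in the knockout, 58 and 135 with DESeq2, 7 and 5 with edgeR on 12 libraries, 161 and 259 without a filter, 11 and 12 with the replicate block, and 9 to 79 and 9 to 140 with 1 library left out. Pathway genes called lower there numbered 0, against 2 with DESeq2, 5 without a filter and 0 to 1 with 1 library left out. In blood 5 genes were called higher and 0 lower, 13 and 9 with DESeq2, 12 and 4 with edgeR on 12 libraries, 18 and 59 without a filter, 2 to 5 and 0 to 1 with 1 library left out, and the count lower was 3 with the replicate block and 1 without both libraries numbered 1. In control blood against bone marrow 2212 genes were called higher and 2466 lower, 1308 and 3906 with library size alone, and 1163 to 2808 and 1464 to 3118 with 1 library left out. Members called there were 2 to 4 higher and 0 to 1 lower with 1 library left out. Of the pathway genes, 16 were called higher and 10 lower with library size alone, 8 lower without a filter, 7 lower with the replicate block, and 14 to 28 higher and 2 to 11 lower with 1 library left out. In the knockout, leaving out 1 library gave 0 to 1 members and 6 to 15 pathway genes lower. The interaction called 0 genes in each direction, 3 higher and 11 lower with DESeq2, and 16 and 103 without a filter, 1 of them a pathway gene called lower. The replicate block changed no call among the 10 genes between genotypes.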
